A study of Drosophila melanogaster with 11 samples.

Results

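CG11893, CG11892, CG11891 and CG11889 are 4 of the 16727 genes in a count table of RNA from Drosophila melanogaster antennae, of which the third segment, the olfactory one, was taken. They were chosen by name as ecdysteroid kinase-like paralogues that lie near each other on chromosome arm 3R, because the count of CG11893 rose with age in flies that lack the microRNA gene mir-284 and not in wild type. That choice used the age changes of these same libraries, so the levels of CG11893 and its changes with age are a description here and carry no test. Of the 4 genes, 2 had counts, CG11893 and CG11892, and these 2 passed the filter on low counts that left 11867 genes.

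The groups were mir-284 knockout flies (KO, genotype w1118;;mir-284 KO, with 7 outcrosses to w1118 per the labels) at 25 d after eclosion with 2 libraries, wild-type flies (WT, w1118) at 25 d with 3, KO flies at 3 d with 3 and WT flies at 3 d with 3. All 4 groups carry the w1118 allele of the white eye colour gene. The labels name a single KO line, and the sex of the flies is not given in the sources used here. The study's design text calls the replicates biological. The 11 libraries held 24619699 to 55485825 counts assigned to genes, and levels are given as CPM, a gene's counts relative to the size of its library after scaling between libraries. On principal component 1 (37.7% of the variance) KO 25 d replicate 1 scored -163, against -13.3 to 47.6 for the others. It had counts for 10447 genes, where the others had counts for 11801 to 13682. The replicates numbered 3 of KO 3 d and WT 3 d stood apart on component 2 (17.6% of the variance, scores 69.4 and 80.1, against -37.2 to 10.7). The targeted gene, mir-284, had 0 counts in all 11 libraries, WT included. With WT at 0 as well, this count checked no genotype label, and why it was 0 was not tested.

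The ecdysteroid kinase-like (EcKL) proteins are a large family in insects with the fold of choline and aminoglycoside kinases, enzymes that transfer a phosphate group to a small molecule. The founding enzyme, the ecdysteroid 22-kinase of the silkworm, phosphorylates the moulting hormone and so makes an inactive storage form that eggs keep. In Drosophila most members have no assigned substrate, and the family has been proposed to phosphorylate foreign compounds as a step of detoxification. No substrate is given here for CG11893, CG11892, CG11891 or CG11889, and no role in the antenna is known for them from the sources used here.

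All 4 genes lie in a run of 26 EcKL genes with no other annotated gene of the table among them, on 3R from 25270209 to 25331203 (dm6), 61.0 kb in length. CG11889 (FBgn0039308) and CG11891 (FBgn0039309) open the run, and CHKov1 and CHKov2 close it. The run holds 11 genes on the plus strand and 15 on the minus strand. CG11892 (FBgn0039313) spans 3R:25281548-25283237 on the plus strand, and its annotated protein has 439 residues. CG11893 (FBgn0039316) spans 3R:25289889-25291366 on the plus strand in 2 exons with 1415 exon bases, of which 38 are 5′ UTR and 126 are 3′ UTR, and its annotated protein has 416 residues. The genes CG31300, CG31104 and CG13658, also EcKL genes, lie between CG11892 and CG11893. On the other side CG31098 lies on the minus strand and ends 3 bases from the end of CG11893, so these 2 genes face each other tail to tail, with no exon base in common. Counting ignored strand, so reads from either gene past its annotated end could count for the other, which was not tested. The mir-284 locus is on the same arm, 12.7 Mb away.

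CG11893 had 122.6 and 68.9 CPM in the KO 25 d libraries, against 12.7, 12.9 and 15.95 CPM in WT 25 d. At 3 d it had 12.8, 11.1 and 7.98 CPM in KO and 10.8, 13.2 and 11.8 CPM in WT. Both KO 25 d libraries were above all 9 others, and those 9 lay within 7.98 to 15.95 CPM. The group means were 95.7 ± 38.0 CPM in KO 25 d (SD, n = 2), 13.9 ± 1.82 in WT 25 d, 10.6 ± 2.43 in KO 3 d and 11.9 ± 1.23 in WT 3 d (SD, n = 3 each). In the order of the levels, KO 25 d came first, and WT 25 d, WT 3 d and KO 3 d followed with ranges that overlapped each other. The groups' values rest on 7219, 1418, 1115 and 1426 counts in the order KO 25 d, WT 25 d, KO 3 d and WT 3 d, so counting error is small beside the spread between libraries.

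**Figure D1:**
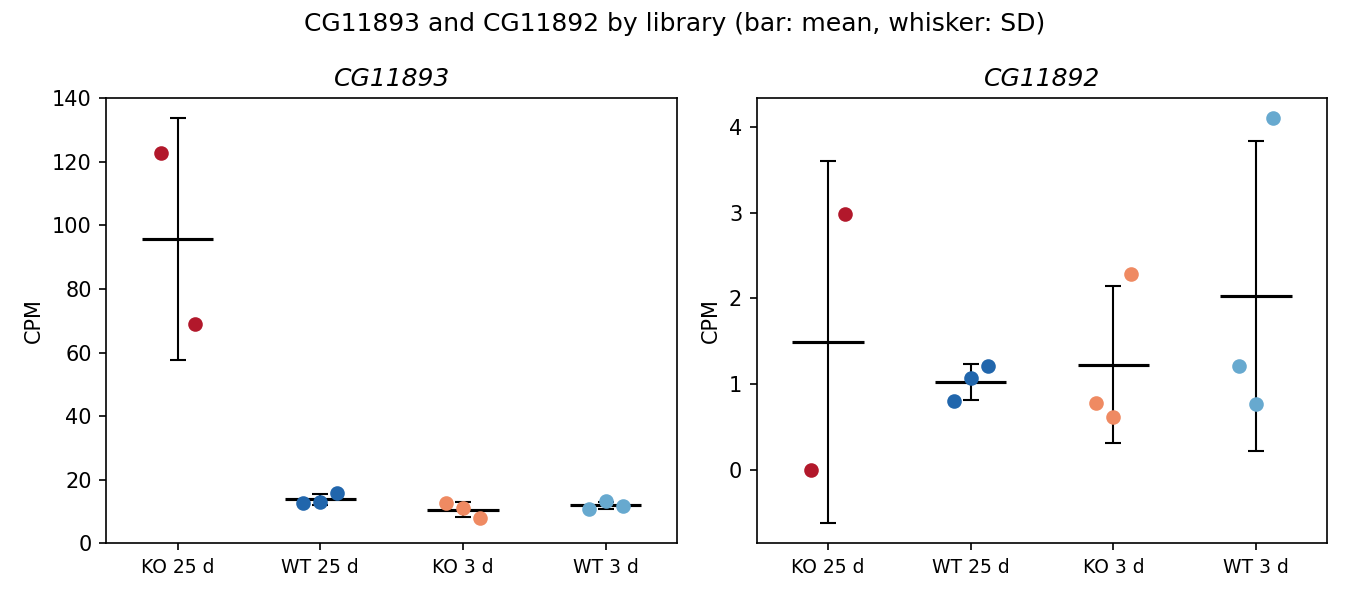
Level of CG11893 (left) and CG11892 (right) in each library, in CPM on linear axes with different scales, for KO 25 d, WT 25 d, KO 3 d and WT 3 d; points are libraries, bars are group means and whiskers are SD. For CG11893 the 2 KO 25 d libraries (122.6 and 68.9 CPM) lie far above the other 9, and for CG11892 the 4 groups overlap, with 1 KO 25 d library at 0.

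In the fitted model the log2 fold change of CG11893 was 3.17 (SE 0.27) for KO 25 d over KO 3 d, which is 8.99-fold, and 0.21 (SE 0.24) for WT 25 d over WT 3 d. The difference of these age changes was 2.96 on the log2 scale (SE 0.36). KO over WT gave 2.79 (SE 0.27) at 25 d, which is 6.91-fold, and -0.17 (SE 0.24) at 3 d. None of these values is a test of CG11893, since they share libraries with the change it was chosen for. Without KO 25 d replicate 1 the age change in KO was 2.70 and the KO difference at 25 d was 2.31. Without KO 25 d replicate 2 they were 3.52 and 3.15. Leaving out the 3 libraries that stood apart, an alternative chosen after seeing the data, gave 2.54 and 2.32. The KO 25 d libraries were matched to the samples by replicate number, and 1 further KO 25 d column of the table was not used here.

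CG11892 was a low transcript. It had 0 and 2.99 CPM in KO 25 d, against 0.801, 1.07 and 1.21 CPM in WT 25 d. Its 3 d values were 0.785, 0.622 and 2.28 CPM in KO and 1.22, 0.773 and 4.10 CPM in WT. The 2 KO 25 d libraries were the lowest and the next to highest of all 11, and the highest, WT 3 d replicate 3, and the KO 3 d library at 2.28 CPM are both libraries that stood apart. The 0 in KO 25 d replicate 1 allows at most 0.0770 CPM for a limit of 3 counts, which covers counting error only. KO over WT gave log2 0.54 (SE 1.402) at 25 d and -0.73 (SE 1.27) at 3 d, neither past edgeR's quasi-likelihood test (Benjamini-Hochberg adjusted p = 0.837 and 0.918). The age changes, as descriptions, were 0.28 (SE 1.41) in KO and -0.98 (SE 1.27) in WT. With errors of this size a several-fold change of CG11892 in either direction was not detectable. The sign at 25 d rests on 1 library, since without KO 25 d replicate 2 the fitted value was -8.23, which rests on 0 counts and is no measure of size, and the sign at 3 d turned to 0.30 without WT 3 d replicate 3.

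CG11889 and CG11891 had 0 counts in 11 of 11 libraries, and for these 2 genes the count does not measure a level. In the table's gene models CG11889 (3R:25270209-25273267, plus strand) has 2944 exon bases, and CG11891 (3R:25270231-25273267, plus strand) has 2922, all of which lie in CG11889 as well. CG11889 has 22 exon bases of its own and CG11891 has 0. In the current Ensembl annotation both genes have a 3-exon transcript over the same 2944 bases, in which the coding sequence of CG11889, for 417 residues, comes first (25270231 to 25271542) and that of CG11891 follows (25271874 to 25273185). Read pairs that overlap exons of 2 genes are counted for neither under the settings in the file header. Among genes of the table with no exon base of their own, 755 of 758 (99.6%) were at 0 in every library, against 847 of 15969 (5.30%) of the others. The 0 of CG11889 and CG11891 therefore says nothing about whether the antenna transcribes them, at either age or in either genotype.

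Levels of different genes were compared per length, as CPM per kb of exon. CG11893 averaged 67.7 CPM per kb in KO 25 d, 9.79 in WT 25 d, 7.51 in KO 3 d and 8.44 in WT 3 d. Among the 24 counted genes of the run it ranked 7th in KO 25 d, 13th in WT 25 d and 14th in both 3 d groups by these means. By library it ranked 6th and 8th in KO 25 d and 12th to 16th in the other 9. Its share of the summed CPM per kb of the run was 7.36% and 4.18% in KO 25 d, against 0.468% to 1.09% in the others. CG10553, the gene with the highest level of the run in every group mean, was at 352 CPM per kb in KO 25 d, 348 in WT 25 d, 270 in KO 3 d and 698 in WT 3 d. CG11892 ranked 20th, 20th, 20th and 19th of 24 in the same order of groups.

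**Figure D2:**
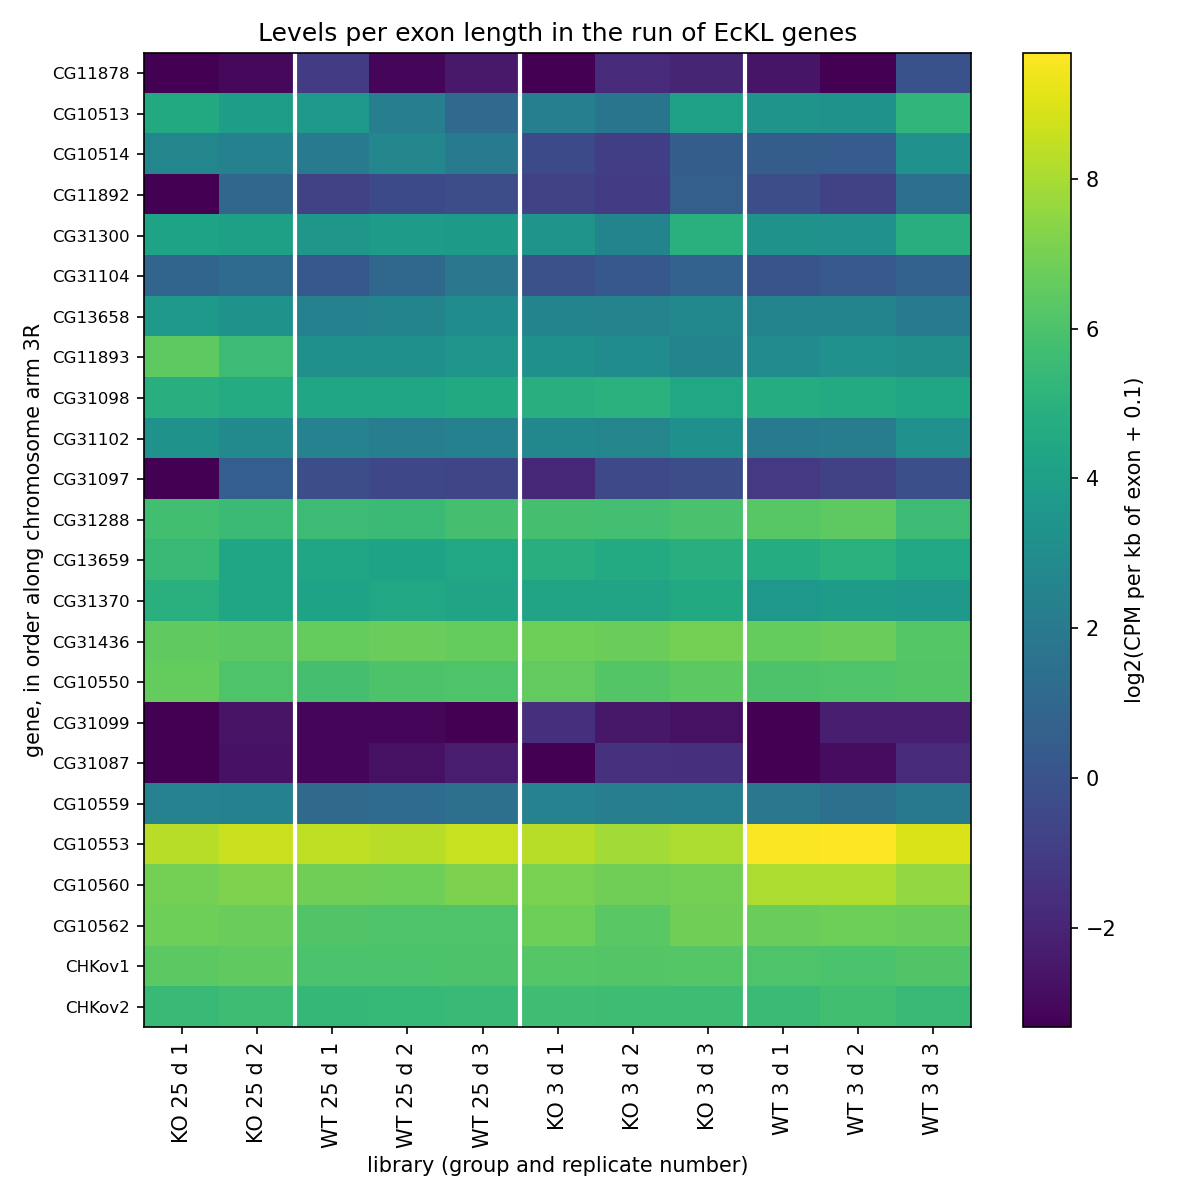
Level of each of the 24 counted genes of the run (rows, in order along 3R) in each of the 11 libraries (columns, KO 25 d, WT 25 d, KO 3 d and WT 3 d), as log2 of CPM per kb of exon plus 0.1; lighter means higher. CG11893 is lighter in both KO 25 d columns than in the other 9, CG11892 is dark throughout, and CG10553 and CG10560 are lightest in WT 3 d.

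The genes next to CG11893 did not show a change of that size. CG13658, which lies 958 bases before it on the same strand, had 17.2 and 12.9 CPM in KO 25 d, against 6.97, 7.70 and 10.6 CPM in WT 25 d. In the 3 d groups CG13658 had 7.71, 7.47 and 8.88 CPM in KO and 7.67, 7.66 and 5.46 CPM in WT. Both KO 25 d libraries were again above all 9 others. The log2 fold change was 0.84 for KO over WT at 25 d (SE 0.26, edgeR adjusted p = 0.132) and 0.91 for age in KO (SE 0.26, adjusted p = 0.297), and neither passed the test. DESeq2 called CG13658 in both comparisons (adjusted p = 0.0368 and 0.0448). No other alternative that kept both KO 25 d libraries called it (edgeR adjusted p up to 0.384 and 0.908). With 1 KO 25 d library left, the values were 0.61 and 0.70 without replicate 1, and 1.04 and 1.10 without replicate 2. Per kb, CG11893 was 6.70 and 5.04 times CG13658 in the KO 25 d libraries, and 0.847 to 2.04 times in the other 9.

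CG31098, the neighbour on the far side, had 42.9 and 37.6 CPM in KO 25 d, against 30.0, 29.7 and 35.7 CPM in WT 25 d. The 3 d libraries had 41.3, 47.6 and 31.2 CPM in KO and 38.8, 36.3 and 29.4 CPM in WT. The KO 25 d libraries lay inside the range of KO 3 d, and the log2 fold change for age in KO was 0.01 (SE 0.20, edgeR adjusted p = 0.995). The ratio of CG11893 to CG31098 in CPM was 2.86 and 1.83 in KO 25 d, against 0.234 to 0.447 in the other 9 libraries.

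Between CG11891 and CG11892 lie CG11878, CG10513 and CG10514. CG11878 had at most 1.17 CPM in any library. CG10514 had 8.47 and 6.91 CPM in KO 25 d, against 5.26, 8.79 and 5.48 CPM in WT 25 d, and at 3 d 0.893, 0.595 and 1.83 CPM in KO and 1.78, 1.70 and 12.9 CPM in WT. Its KO 25 d and KO 3 d values did not overlap, and its log2 fold change for age in KO of 2.80 was the largest rise in the run after that of CG11893, but with an SE of 0.83 it did not pass the test (edgeR adjusted p = 0.313). Leaving out the 3 libraries that stood apart, its age change was log2 3.22 in KO, with 1 KO 25 d library left, and log2 1.90 in WT. DESeq2 gave no adjusted p for CG10514 in either age comparison. With all 11 libraries its age change in WT was log2 0.26, and without WT 3 d replicate 3 alone it was 1.90 (edgeR adjusted p = 0.280). Only the fit without the 3 libraries that stood apart called it for age, in KO and in WT. In KO such a call measures no spread within KO 25 d. The edgeR alternatives that kept both KO 25 d libraries did not call it for age in either genotype. CG10513 had 32.2 and 20.4 CPM in KO 25 d and 17.9, 6.20 and 2.83 CPM in WT 25 d, and its highest value, 50.9 CPM, was in WT 3 d replicate 3.

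Between CG11892 and CG11893, CG31300 had 27.0 and 24.2 CPM in KO 25 d and 17.5, 20.7 and 20.0 CPM in WT 25 d, and its 2 highest values, 44.2 and 41.0 CPM, were in the replicates numbered 3 of KO 3 d and WT 3 d. CG31104 stayed within 1.14 to 4.85 CPM. Beyond CG31098, CG31102 had 7.31 to 17.7 CPM and CG31097 had 0 to 2.00 CPM over the 11 libraries. Before CG11889 the nearest genes are CR45214, at most 0.570 CPM in any library, RIOK2 (9.74 to 16.5 CPM), a kinase of ribosome maturation, and Aats-gln (42.1 to 61.0 CPM), the glutaminyl-tRNA synthetase. None of these flanking genes passed the test in any of the 5 comparisons in the fit of all 11 libraries. CG31097 was called only in a fit that left 1 KO 25 d library, where a call measures no spread within that group. CG31102 was called at 3 d without the 3 libraries that stood apart.

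**Figure D3:**
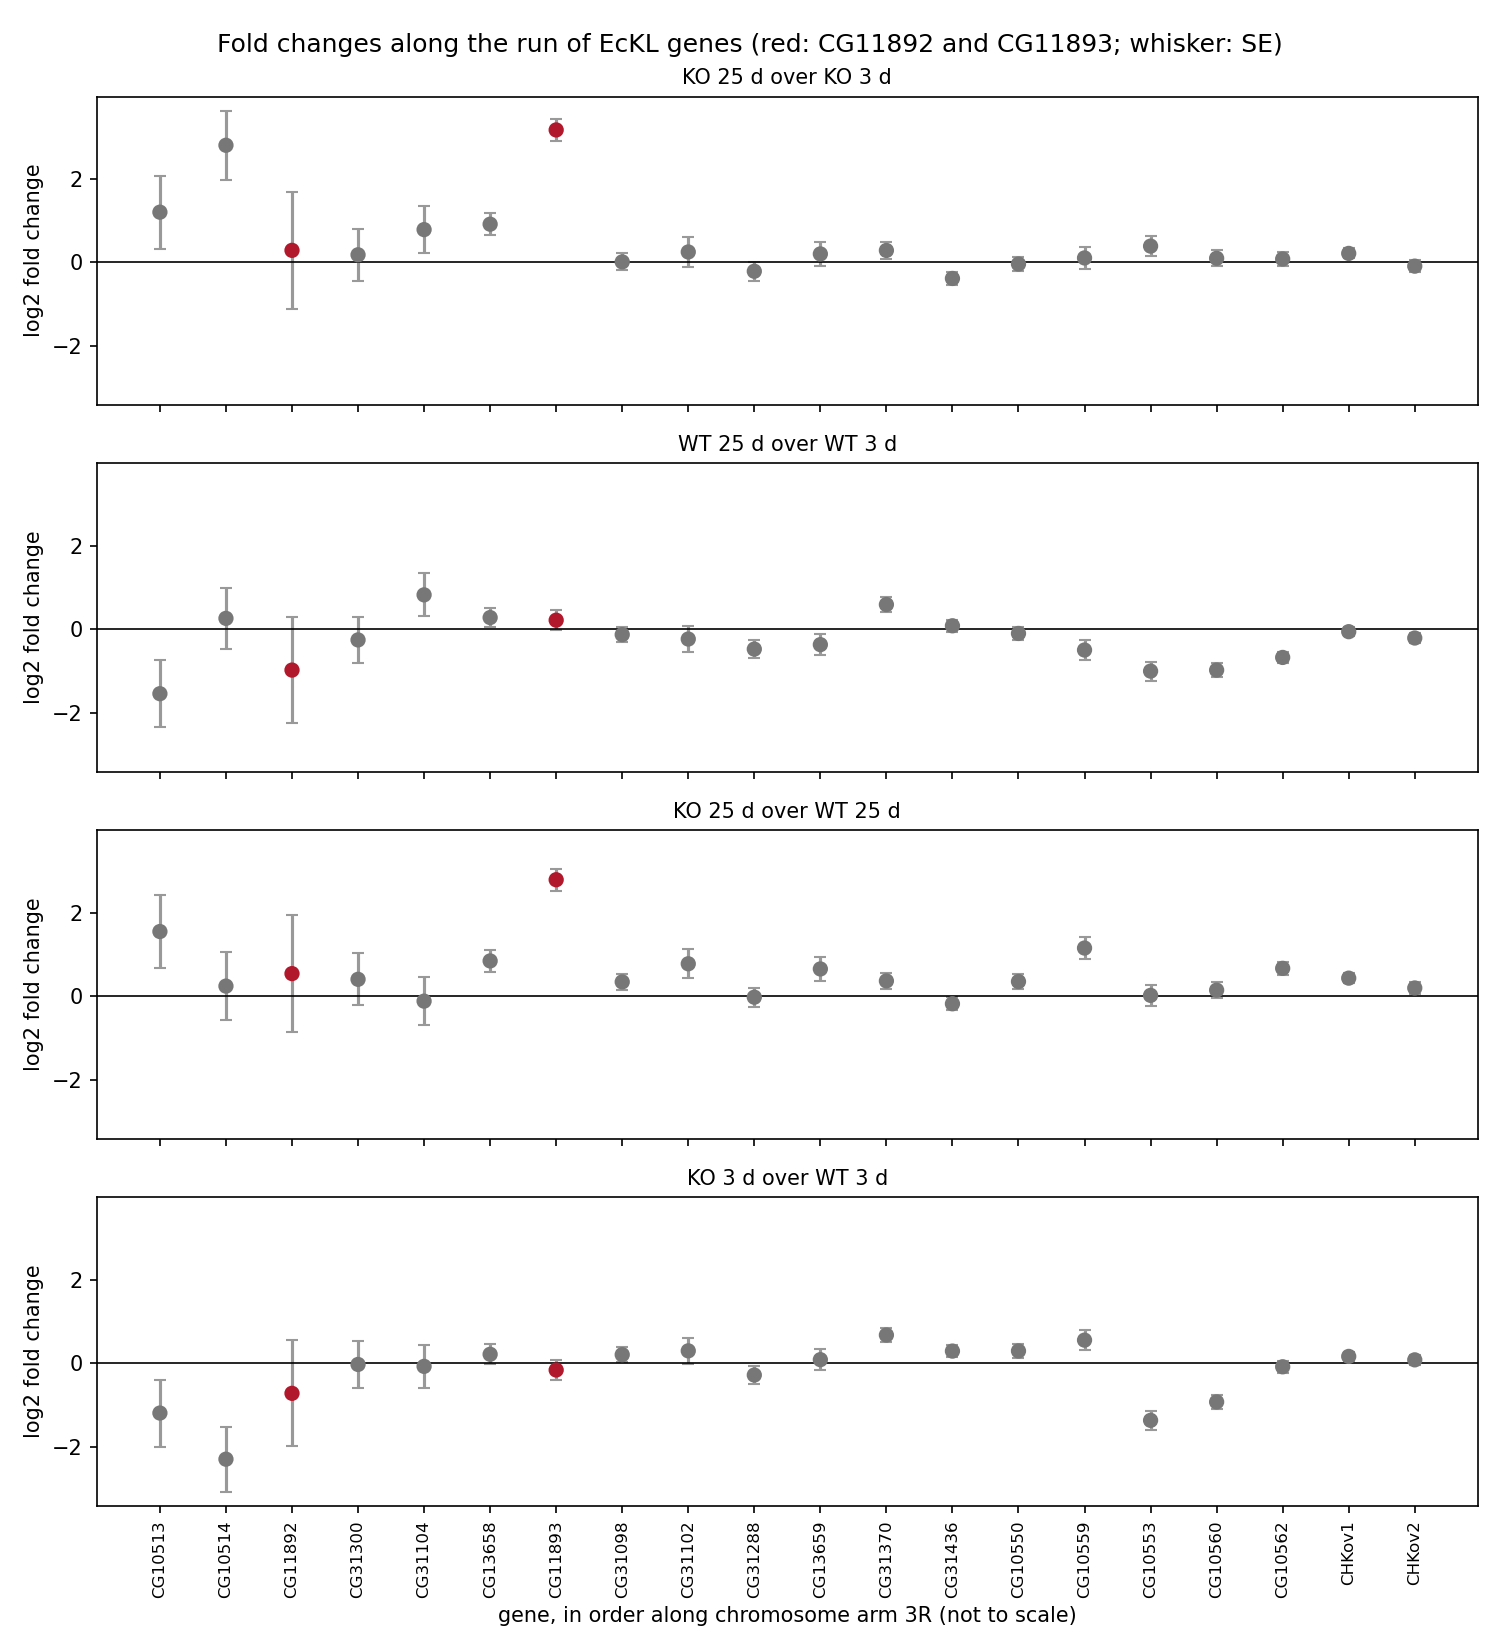
Log2 fold change with its SE for the 20 run genes whose mean reached 1 CPM, in order along 3R (not to scale), for KO 25 d over KO 3 d, WT 25 d over WT 3 d, KO 25 d over WT 25 d and KO 3 d over WT 3 d; CG11892 and CG11893 are in red. CG11893 stands at 3.17 in the first panel and 2.79 in the third, with its neighbours CG13658 at 0.91 and 0.84 and CG31098 at 0.01 and 0.34.

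The EcKL family was then described without the 4 genes. Of its 46 other listed genes 41 passed the filter. For age in KO, 0 of the 41 passed edgeR's test, where 0.0421% of all 11867 genes were called. At an unadjusted p under 0.05 there were 7 of the 41 (11.8% of all genes), and by DESeq2 3 (2.36% of all genes). Their median log2 fold change was 0.08, against -0.04 over all genes tested. For age in WT, 0 of the 41 passed, with 0.152% of all genes called, 8 had an unadjusted p under 0.05 (8.07% of all genes) and DESeq2 called 3 (2.49%). There 28 of the 41 had values below 0, with a median of -0.24 against -0.01 over all genes. The difference of the age changes also called 0 of the 41, with 0.0253% of all genes called, 9 had an unadjusted p under 0.05 (6.12% of all genes) and DESeq2 called 2 (0.362%). Single libraries moved these counts. Fits without a KO 25 d library, those without the 3 that stood apart included, leave 1 in that group. Their calls in comparisons with KO 25 d therefore measure no spread there. With KO 25 d replicate 1 or 2 left out, 3 were called for age in WT, with 1.44% and 1.46% of all genes called. Leaving out the 3 libraries that stood apart gave 1 call for age in KO, CG10514 (1.74% of all genes called), 13 for age in WT (9.13%) and 2 for the difference (0.723%). Age in KO and the KO difference at 25 d share the KO 25 d libraries, so their values are not independent.

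KO over WT at 25 d called 3 of the 41 other EcKL genes, all higher in KO and none in the run, where 1.74% of all genes were called and 0.986% were called higher. CG16898, on chromosome arm 2R, had 75.8 and 29.0 CPM in KO 25 d, against 3.58, 5.44 and 3.57 CPM in WT 25 d. At 3 d it had 5.60, 9.04 and 8.71 CPM in KO and 2.42, 1.13 and 2.80 CPM in WT. Its log2 fold change was 3.64 at 25 d (SE 0.47, edgeR adjusted p = 0.00491), and at 3 d the value of 1.88 did not pass the test (adjusted p = 0.0670). That 3 d difference was called in 5 of 18 alternatives, by DESeq2, with no filter, without either of the KO 25 d libraries and without the 3 that stood apart (adjusted p 0.00167 to 0.226 over the 18). In KO its age change was 2.75 and did not pass either (adjusted p = 0.108), but DESeq2 called it (adjusted p = 6.9e-06). The edgeR fit of only the groups compared gave an adjusted p of 0.788. With 1 KO 25 d library left, the age change was 1.91 without replicate 1 and 3.28 without replicate 2. Like CG11893, it was higher in both KO 25 d libraries than in all 9 others, but its KO 3 d libraries were also all above the WT 3 d ones.

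CG32195, on 3L, had 53.1 and 34.5 CPM in KO 25 d, against 17.7, 16.2 and 13.5 CPM in WT 25 d (log2 1.47, SE 0.25, edgeR adjusted p = 0.0153). At 3 d it had 30.6, 22.996 and 20.6 CPM in KO and 16.05, 17.3 and 11.9 CPM in WT, so all 5 KO libraries were above all 6 WT libraries. JhI-26, which is known as a gene induced by juvenile hormone, had 77.4 and 42.4 CPM in KO 25 d, against 31.5, 23.6 and 24.2 CPM in WT 25 d (log2 1.18, SE 0.25, adjusted p = 0.0432). One of its KO 25 d libraries lay among the KO 3 d values of 51.9, 43.0 and 39.8 CPM, and WT 3 d had 39.4, 38.7 and 32.1 CPM. Leaving out a KO 25 d library leaves 1 in that group, so a p-value from such a fit measures no spread there. Without replicate 1 the log2 values fell to 1.12 for CG32195, 0.67 for JhI-26 and 2.78 for CG16898. Without replicate 2 they were 1.75, 1.55 and 4.17. Leaving out any 1 of the WT 25 d libraries left 1 call, CG16898. A fit limited to KO 25 d and WT 25 d called 0 of the 41 and 20 genes in all, with CG16898 at an adjusted p of 0.0638, and DESeq2 called 10 of the 41, with 9.08% of all genes. At an unadjusted p under 0.05 there were 14 of the 41, with 20.6% of all genes.

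Within the run, 16 of the 21 other tested genes had values above 0 for KO over WT at 25 d. The median of the 21 was 0.34, against -0.04 over all genes. Of the 21, 0 passed the test (1.74% of all genes) and 5 had an unadjusted p under 0.05 (20.6% of all genes). DESeq2 called 4 of the 21, CG10559, CG10562, CG13658 and CHKov1, with 9.08% of all genes called. CG10559 (1.15, SE 0.26, edgeR adjusted p = 0.0571) and CG10562 (0.67, SE 0.16, adjusted p = 0.0625) had the lowest adjusted p of these. CHKov1, in which a transposon insertion has been linked to insecticide and sigma virus resistance, had 122.6 and 131.0 CPM in KO 25 d, against 92.5, 92.1 and 97.8 CPM in WT 25 d (log2 0.43, SE 0.12, adjusted p = 0.105). At 3 d CHKov1 had 110.5, 106.7 and 111.8 CPM in KO and 98.8, 93.7 and 102.1 CPM in WT. Every KO library was thus above every WT library at both ages. The same held for CG10559 (6.66 to 7.62 CPM in KO and 3.07 to 5.32 CPM in WT). The share of all genes with such a split by genotype was not counted. Both KO 25 d libraries were above all 9 others for 5 of the 43 tested EcKL genes, CG11893, CG13658, CG16898, CG32195 and CHKov1, and for 343 of all 11867 (2.89%). CG11893 was chosen for this pattern.

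KO over WT at 3 d called 2 of the 41 other EcKL genes, both lower in KO and both in the run, where 1.39% of all genes were called and 0.742% were called lower. CG10553 had 448, 333 and 385 CPM in KO 3 d, against 1132, 1180 and 709 CPM in WT 3 d (log2 -1.37, SE 0.23, edgeR adjusted p = 0.0154). CG10560, the next gene, had 184, 160 and 172 CPM in KO 3 d, against 365, 364 and 255 CPM in WT 3 d (log2 -0.93, SE 0.17, adjusted p = 0.0250). At 25 d CG10553 had 441 and 573 CPM in KO and 506, 451 and 547 in WT, and CG10560 had 168 and 199 CPM in KO and 159, 153 and 186 in WT. WT 3 d was thus the group that stood apart for this pair, where KO 25 d stood apart for CG11893. Their age changes in WT, -1.01 and -0.98, did not pass edgeR's test (adjusted p = 0.132 and 0.0680) and were called by DESeq2. Both calls ended without any 1 of the KO 3 d libraries or without WT 3 d replicate 1 or 2, and that of CG10560 also ended without WT 25 d replicate 1 or 2. With KO 25 d replicate 1 or 2 left out, 7 of the 41 were called (4.70% and 4.68% of all genes), without WT 3 d replicate 3 it was 4 (1.36%), and without the 3 libraries that stood apart it was 11 (12.5%). DESeq2 called 6 of the 41 (4.75% of all genes), among them CG16898, CG31370 and CG5644, which were higher in KO. At an unadjusted p under 0.05 there were 11 of the 41, with 11% of all genes.

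**Figure D4:**
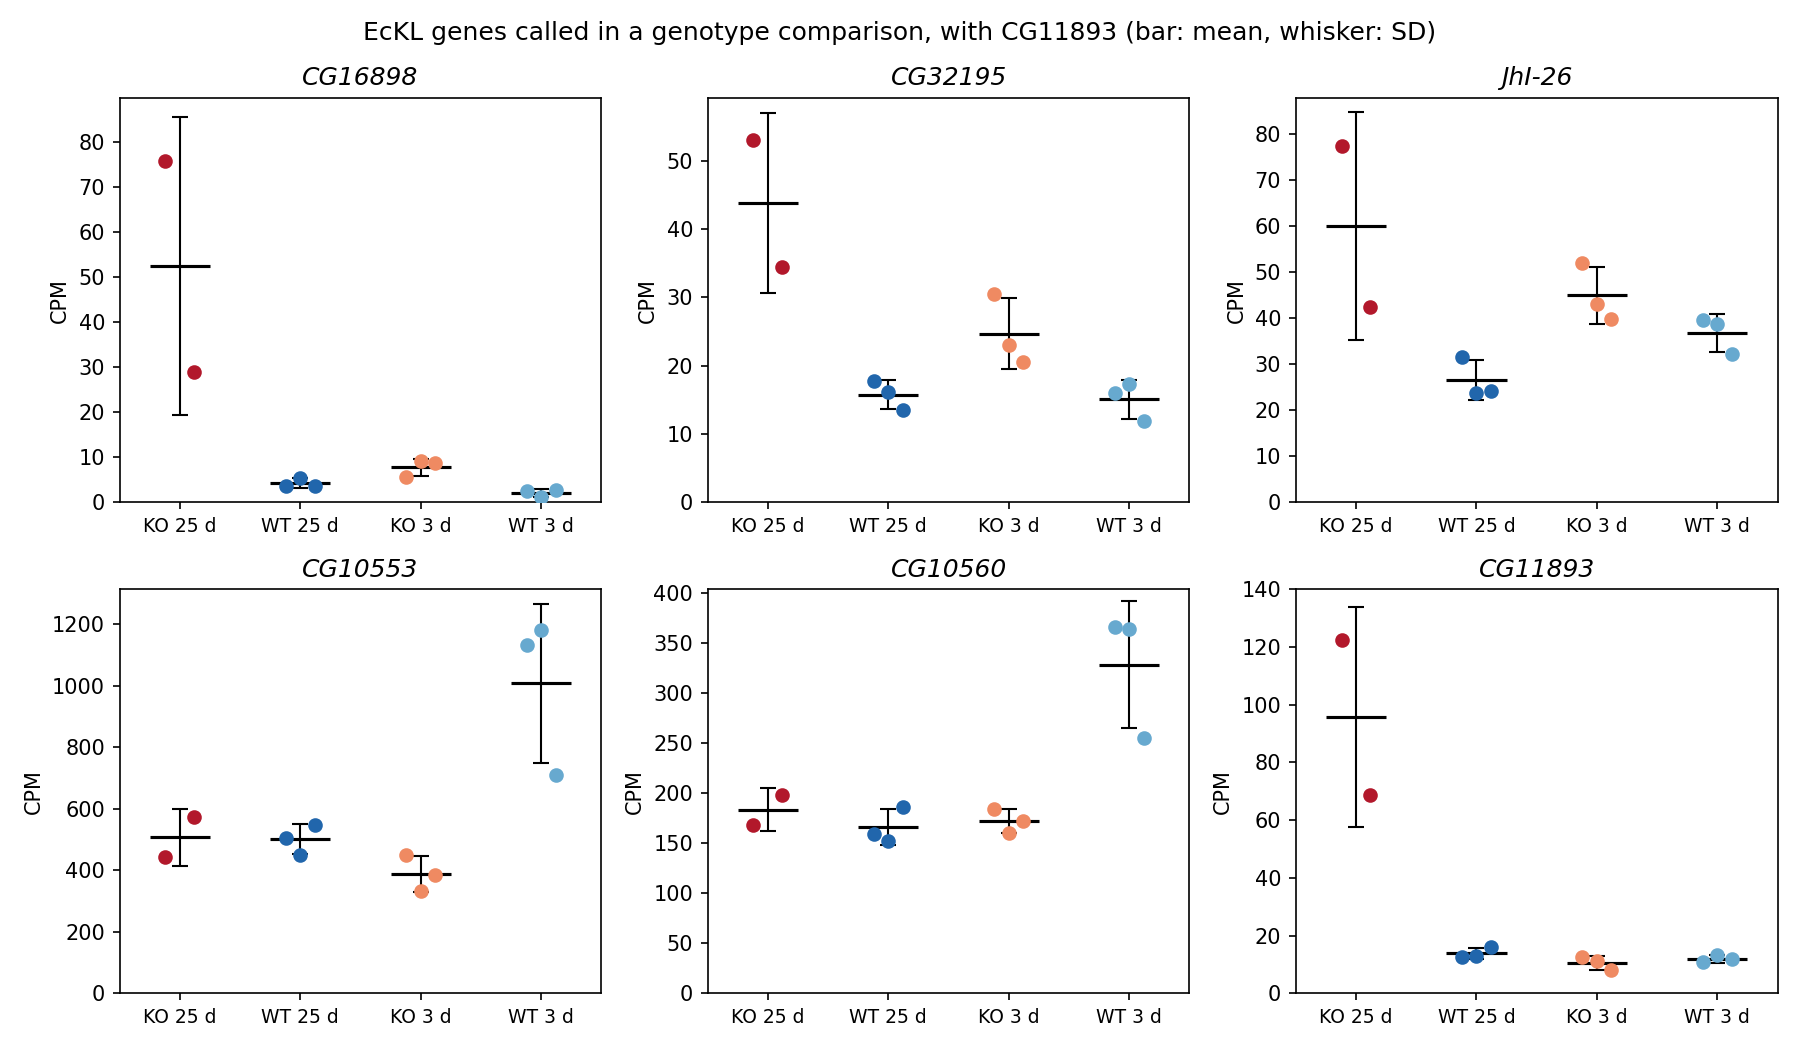
Level in CPM (linear axes from 0, different scales) of the 5 EcKL genes called in a genotype comparison, with CG11893, in each library of KO 25 d, WT 25 d, KO 3 d and WT 3 d; points are libraries, bars are means and whiskers are SD. CG16898, CG32195 and JhI-26 are higher in KO 25 d than in WT 25 d, and CG10553 and CG10560 are lower in KO 3 d than in WT 3 d.

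Genes of ecdysteroid synthesis, breakdown and response were looked at because the family is named for these hormones. Of 25 listed, 21 were tested. KO over WT at 25 d called 1 of the 21 (1.74% of all genes; 3 at an unadjusted p under 0.05, with 20.6% of all genes, and 3 by DESeq2, with 9.08%). The called gene was Hr46, also known as Hr3, a nuclear receptor induced by ecdysone. The other 4 comparisons called 0, with 0.0253% to 1.39% of all genes called. At an unadjusted p under 0.05 there were 4 for age in KO (11.8% of all genes) and 1 for age in WT (8.07%). For KO at 3 d there was 1 (11%), and for the difference of age changes 2 (6.12%). DESeq2 called 0 in each of these 4, with 2.36%, 2.49%, 4.75% and 0.362% of all genes called in the same order. Hr46 had 69.1 and 39.1 CPM in KO 25 d, against 20.5, 25.0 and 21.5 CPM in WT 25 d (log2 1.28, SE 0.28, edgeR adjusted p = 0.0488). In younger flies Hr46 had 33.4, 33.3 and 20.0 CPM in KO and 23.7, 23.5 and 18.5 CPM in WT. Both KO 25 d libraries were above the 9 others. Without KO 25 d replicate 1, which leaves 1 library in that group, the log2 value fell to 0.80.

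The 5 genes whose level followed that of CG11893 most closely over the 11 libraries were let-7-C, CR43653, Pabp2, CG45071 and CR45054, with Pearson r of log2 CPM between 0.91 and 0.93. let-7-C is the host transcript of the let-7 microRNA cluster, and Pabp2 is the nuclear poly(A) binding protein. CR45054 had 16.9 and 16.9 CPM in KO 25 d, against 2.00, 3.28 and 2.21 CPM in WT 25 d. let-7-C had 12.1 and 3.75 CPM in KO 25 d, against 1.90, 2.13 and 3.09 CPM in WT 25 d. Pabp2 had 110 and 94.0 CPM in KO 25 d, against 74.6, 76.7 and 86.2 CPM in WT 25 d. The 5 genes therefore share the high KO 25 d libraries while the size of the step differs widely. Over the 9 libraries outside KO 25 d, r was 0.80 for let-7-C, 0.15 for CR43653, 0.58 for Pabp2, 0.66 for CG45071 and -0.01 for CR45054. Counts were made without regard to strand, and let-7-C, Pabp2 and CG45071 share exon bases with a gene on the opposite strand, so their values are uncertain. The points share libraries, scaling and the choice of CG11893, so these correlations are descriptions.

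**Figure D5:**
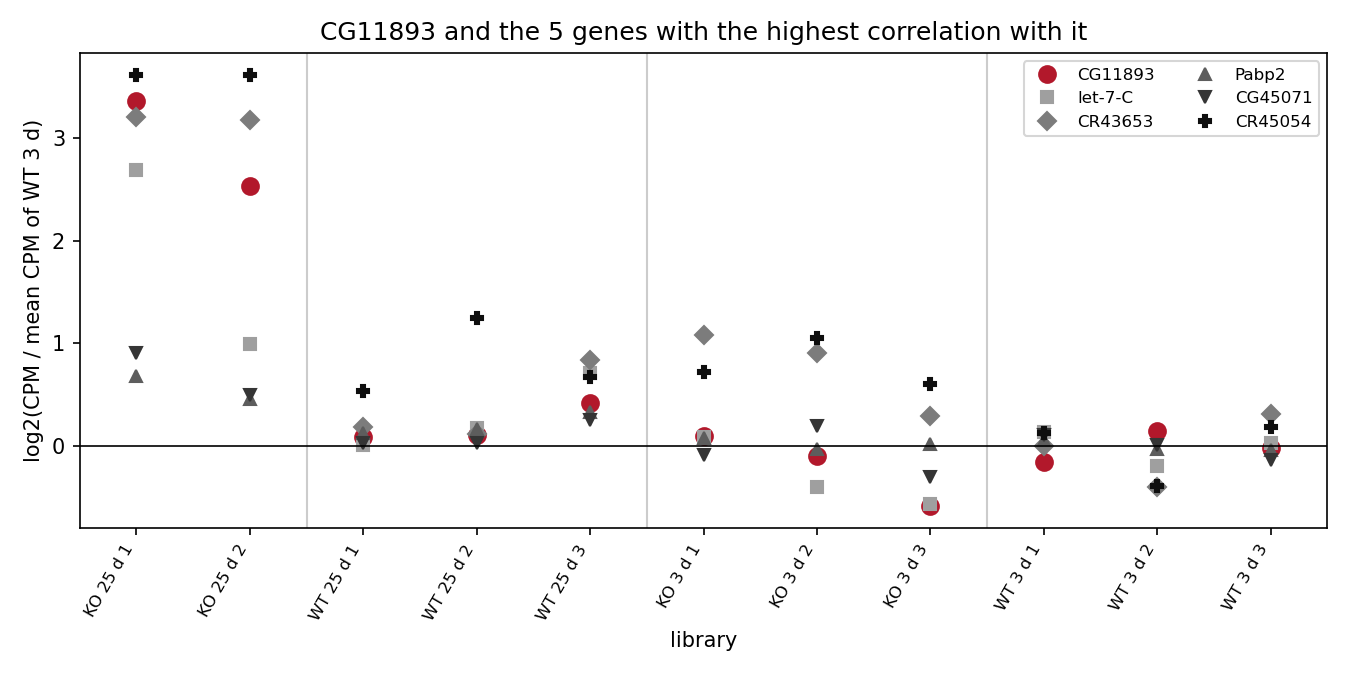
Level of CG11893 and of the 5 genes with the highest Pearson r with it, as log2 of CPM over the gene's mean CPM in WT 3 d, in each library of KO 25 d, WT 25 d, KO 3 d and WT 3 d. All 6 genes are at their highest in the 2 KO 25 d libraries, with a step that is large for CR45054 and small for Pabp2.

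Whole segments were sequenced, so fewer cells of a type and less RNA per cell cannot be told apart. Of the 9 marker lists, none was higher in summed CPM in both KO 25 d libraries than in all 9 others. The 13 antennal neuron and support cell markers, among them Orco and several odorant binding protein genes, were all detected and summed to 44258 and 251031 CPM in KO 25 d, against 34662 to 77807 CPM in the others, the high value being replicate 1. Of that high value the odorant binding protein gene Obp19d alone made 137246 CPM, where it had 17216 CPM in replicate 2. Orco had 3724 and 2107 CPM in KO 25 d (700 to 2585 CPM in the others), and Ir25a had 370 and 401 CPM (88.1 to 421 CPM). The 12 gut and Malpighian tubule markers, tissues in which detoxification genes are well known to be active, summed to 427 and 507 CPM in KO 25 d, against 577 to 940 CPM in the others. The 6 glial markers summed to 1883 and 2385 CPM, against 2640 to 3707 CPM. Taken singly, 2 of the 12 gut and tubule markers and 2 of the 6 glial markers were lower in both KO 25 d libraries than in all 9 others. For muscle it was 4 of 12, for photoreceptor 3 of 8, and for the remaining lists 0. In the other direction, 1 of 7 hemocyte markers was higher, as were 343 of all 11867 genes tested (2.89%). The share of all genes that were lower in this way was not counted, so nothing is drawn from the counts of lower markers. Muscle, fat body and female, hemocyte, oenocyte, photoreceptor and male lists overlapped between KO 25 d and the others, and no marker was at 0 in every library. The part that cell makeup has in the level of CG11893 was not tested.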

How the data were processed

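The authors deposited raw counts of read pairs over the exons of each gene. Per the file headers, featureCounts 1.4.5-p1 made them with strand setting 0, which ignores strand. The submitters' processing notes name dm6, FastQC and STAR 2.4.2a. Per the labels' protocols, DNase-treated RNA was poly(A)-selected. The table has 12 library columns. They were matched to the 11 samples by genotype, age and replicate number, and 1 KO 25 d column was not used. No row lacked a gene. FlyBase IDs were found for 16506 of 16727 symbols.

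From these counts, filterByExpr (by group) kept 11867 genes, TMM scaled the libraries, and edgeR 4.0.16 (R 4.3.3) fitted 4 group means over all 11 libraries with robust quasi-likelihood dispersions (common biological coefficient of variation 0.431). Calls are adjusted p under 0.05 (Benjamini-Hochberg over all genes tested). CPM are TMM-scaled, and correlations used log2 CPM with a prior count of 2. Depth was 24619699 to 55485825 counts per library.

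The 4 genes, the EcKL list of 50, the 25 ecdysteroid genes and the 9 marker lists were chosen with earlier results of these data known. Named genes were the 4, called EcKL and up to 6 called ecdysteroid genes, all genes between CG11889 and CG11893 with 3 on each side, and the 5 most like CG11893. CG10559, CG10562 and CHKov1 were named after their values were seen. In a simulation on 11867 genes with 200 changed, recovery of 2-fold and 4-fold changes was 19% and 85% (age in KO, 7 false calls), 42% and 91% (age in WT, 6 false calls), 43% and 94% (KO at 3 d, 3 false calls) and 23% and 87% (KO at 25 d, 6 false calls). These recovery rates are not split by level, so they give none for low transcripts such as CG11892. How a library that stands apart, as KO 25 d replicate 1 does, would move them was not tested. No genome or sequence table was used. Alternatives were RLE scaling, DESeq2 1.42.0, no filter, a block for the replicate number, a fit limited to the groups compared and leaving out each library.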

Additional observations from a re-analysis of the deposited data

How the results depend on the processing

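The log2 fold change of CG11893 kept its sign under every alternative run, at 2.70 to 3.52 for age in KO and 2.31 to 3.15 for KO at 25 d when a library was left out, and at 2.54 to 3.19 and 2.32 to 2.79 under the others. Counts of EcKL genes called other than the 4 moved more. Leaving out a library gave 0 to 10 for age in KO, 0 to 3 for age in WT, 0 to 7 for KO at 3 d, 1 to 14 for KO at 25 d and 0 to 10 for the difference of age changes, with the highest value of each reached without KO 25 d replicate 2, when 4084, 5090 and 2987 of all genes were called for age in KO, KO at 25 d and the difference. Fits without a KO 25 d library had 1 in that group, so their calls in its comparisons measure no spread there. DESeq2 gave 3, 3, 6, 10 and 2. Fitting only the groups compared gave 1 for age in WT and 0 for KO at 25 d. The replicate block gave 1 for KO at 3 d and changed no other of these counts. Of 15 same-numbered pairs, 2 had a correlation of deviations over 0.1 (range -0.118 to 0.465), and 4 of 11 libraries correlated best with their own number. Those 2 pairs were KO 3 d with WT 3 d, numbers 1 (0.408) and 3 (0.465). KO 3 d replicate 1 with WT 3 d replicate 2 reached 0.504. KO 25 d has 2 libraries, whose deviations mirror each other, so its pairs are not separate checks. Whether the replicate numbers mark a pairing or a shared batch is therefore not settled. Further alternatives were chosen after seeing the data. Without both 3 d libraries numbered 3, age in WT called 1. Without these and KO 25 d replicate 1, the counts were 1, 13, 11, 9 and 2 in the same order. RLE scaling and no filter moved none of these counts by over 1.5 times. Among single genes, CG11892 ranged over -8.23 to 1.53 at 25 d and -1.52 to 0.30 at 3 d when a library was left out, with the sign reversed at 25 d without KO 25 d replicate 2 and at 3 d without WT 3 d replicate 3. CG16898 lost its call in 1 alternative (adjusted p = 0.0638 with only the groups compared), CG32195 in 5 (0.0533 to 0.126), JhI-26 in 11 (0.0558 to 0.267), CG10553 in 5 (0.0534 to 0.0930), CG10560 in 8 (0.0560 to 0.134) and Hr46 in 10 (0.0728 to 0.319). The cause of these moves was not tested. CG11892 had 105 to 235 counts a group. Its libraries had 0 and 106 counts in KO 25 d, and 54, 30 and 151 in WT 3 d.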
